A study of Mus musculus with 9 samples.

Results

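Polyamine metabolism is described here through 10 genes: Odc1, Amd1, Amd2, Srm, Sms, Smox, Sat1, Oaz1, Oaz2 and Azin1. They were chosen by symbol for what their proteins do, with no threshold on a measured value but with earlier results of these data known. All 10 were found among the 55487 genes of the count table, and all 10 passed a filter on low counts that left 14851 genes for testing.

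RNA was sequenced from whole gastrocnemius, a calf muscle, of wild-type mice labelled C57BL/6 (C57BL/6J in the study's text) and male, to follow the passage from atrophy to regrowth when load returns. The Control group (n = 4) moved freely in conventional cages, and the Unloading group (n = 2) was taken after 10 days with the hindquarters raised by a line at the tail base so that the hind legs bore no weight. The Reloading group (n = 3) was taken 1 day after mice unloaded in the same way had gone back to normal cage activity. Every label says male, whereas the study's methods speak of females where the unloading is described, and the age of the animals is not given in the sources used here. No label says which libraries came from which cage or animal, so p-values measure only the spread between these libraries, which may be technical.

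Putrescine, spermidine and spermine are small positively charged molecules that bind RNA and other polyanions and are needed for translation and cell growth. Ornithine decarboxylase (Odc1) makes putrescine from ornithine, and S-adenosylmethionine decarboxylase (Amd1, and its close copy Amd2) makes the aminopropyl donor. Spermidine synthase (Srm) and spermine synthase (Sms) then add aminopropyl groups in turn. Smox oxidises spermine back to spermidine, and Sat1 acetylates spermidine and spermine so that they can be oxidised or leave the cell. Antizymes (Oaz1, Oaz2) bind ornithine decarboxylase and send it to the proteasome, and the antizyme inhibitor Azin1, an inactive relative of ornithine decarboxylase, takes antizyme away from it. In muscle, polyamine enzymes are known to respond to androgens, to growth and to loss of load.

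The libraries held 9252443 to 19612101 read pairs assigned to genes. Normalisation factors from the trimmed mean of M-values (TMM) lay between 0.928 and 0.960 in Control and Unloading and between 1.11 and 1.13 in Reloading, where mitochondrial genes took 6.49% to 6.75% of the counts against 9.36% to 10.6% in the other 6 libraries. Scaling by library totals instead of TMM moved the median log2 fold change over the tested genes from 0.03 to 0.27 between Unloading and Reloading and from 0.01 to 0.25 between Control and Reloading. Fold changes given here are relative to the TMM scaling unless another is named, whereas levels per exon length do not use it. Transcripts of 7 muscle fibre markers (Ckm, Acta1, Mb, Myh4, Myh1, Pvalb and Tnnt3) summed to between 115381 and 151002 counts per 1000000 (CPM) of a library's total, so the label of muscle held. Control 2 and Reloading 1 held skin transcripts: 6 skin markers summed to 275 and 147 CPM there and to at most 3.90 CPM in the other 7 libraries. The same libraries are used in more than 1 of the 3 comparisons, which are therefore not independent of each other.

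The sequences shown are sites where these transcripts are known to be controlled or can be confused with each other. The first is the frameshift site of the antizymes. Their reading frame is interrupted by a stop codon, and polyamines raise the share of ribosomes that shift frame there, so the level of antizyme messenger RNA is not that of antizyme protein. The 30 bases around the site are on GRCm38 at chr10:80828280-80828309, plus strand, in exon 2 of Oaz1, and at chr9:65686257-65686286, plus strand, in exon 3 of the transcript Oaz2-203, 5′ to 3′ with the last codon before the shift and the stop codon in capitals:
Oaz1: cctcggtggtgcTCCTGAtgtccctcaccc
Oaz2: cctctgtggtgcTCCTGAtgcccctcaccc

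The next sequences concern Amd1 and Amd2. The annotation gives Amd1 up to 8 exons in a transcript and Amd2 a single exon, and 76.7% of the 50-base windows of the Amd1 transcripts also occur in Amd2, while 85.7% of those of Amd2 occur in Amd1. Reads that lie wholly in shared stretches fit both genes, so the split of counts between the pair is uncertain. Near their start both transcripts share a run of bases, followed here for 48 bases, up to the end of the Amd1 window searched. The run may go on beyond that window, and it includes a short upstream reading frame of 21 bases. In the Amd1 messenger RNA, such a frame is known to hold back translation when polyamines are plentiful. It lies at chr10:40302155-40302175 for Amd1 and at chr10:35711860-35711880 for Amd2, both on the minus strand:
upstream frame of Amd1 and Amd2: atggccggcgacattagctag

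Upstream of these 48 bases the pair had little in common, and the longest other run that their promoter windows shared was 7 bases. The 120 bases before the start are shown for Odc1 (chr12:17544753-17544872, plus strand), Amd1 (chr10:40302189-40302308, minus strand) and Amd2 (chr10:35711892-35712011, minus strand), from RefSeq's table on GRCm38.p6, because Odc1 was the gene called higher on unloading and Amd1 and Amd2 had the lowest fold changes of the 10 on reloading. The start meant is that of RefSeq. The annotation behind the counts starts Odc1 at 17544794, so part of the Odc1 stretch lies within the gene as counted. Capitals mark GC boxes (GGGCGG) and CCAAT, on either strand:
Odc1: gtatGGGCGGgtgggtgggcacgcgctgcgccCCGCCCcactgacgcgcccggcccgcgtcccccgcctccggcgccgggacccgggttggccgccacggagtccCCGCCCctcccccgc
Amd1: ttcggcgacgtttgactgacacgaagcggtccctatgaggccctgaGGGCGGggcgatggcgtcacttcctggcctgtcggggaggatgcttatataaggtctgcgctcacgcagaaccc
Amd2: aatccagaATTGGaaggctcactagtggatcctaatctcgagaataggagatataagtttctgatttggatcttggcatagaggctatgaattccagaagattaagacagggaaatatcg

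G and C made up 84.2% of the Odc1 stretch, 61.7% of that of Amd1 and 39.2% of that of Amd2. RefSeq promoter windows of 300 bases (250 before and 50 after the start) were at hand for 8 of the 10 genes, with 2 windows for Sms, and Srm and Azin1 had no entry. On either strand, the E-box CACGTG, to which Myc binds with Max, was in 1 of these 9 windows, that of an Sms start, and in 7.15% of all 32851 windows. The cyclic AMP response element TGACGTCA was in 0 of the 9 and in 1.79% of all windows. A GC box was in 6 of the 9 and in 35.7% of all, and CCAAT was in 3 of the 9 and in 37.4% of all. None of the 4 motifs contains another, and a match is a description of letters in a window. Bases outside these windows, introns further into the genes among them, were not searched, so a motif absent here may lie elsewhere in a gene.

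Levels of different genes were compared per exon length, as transcripts per 1000000 (TPM). In Control, Amd1 had the highest level of the 10 genes, at 727 ± 84.3 TPM (SD, n = 4), followed by Smox at 387 ± 25.2 TPM and Oaz1 at 245 ± 17.1 TPM. Oaz2 stood at 123 ± 7.34 TPM, Odc1 at 100 ± 10.1 TPM and Sms at 50.3 ± 2.45 TPM. The lowest 4 were Azin1 at 19.4 ± 1.65 TPM, Amd2 at 17.6 ± 2.15 TPM, Sat1 at 14.7 ± 1.51 TPM and Srm at 12.1 ± 0.151 TPM. The ranges of Azin1 and Amd2 overlapped, as did those of Amd2 and Sat1, and the other neighbours in this order did not overlap. Reads that fit both Amd1 and Amd2 are not counted under the counter's defaults, which can lower the levels given for this pair. The same limit holds for other genes: 24.3% of the 50-base windows of Odc1, 21.0% of those of Oaz1 and 17.5% of those of Sms occur in other annotated transcripts, against 7.42% for Oaz2. The order of Oaz2 above Odc1 in Control and the level ratios given for these genes carry this uncertainty.

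The order was different in Reloading. Smox, at 407 ± 60.3 TPM (SD, n = 3), and Amd1, at 343 ± 32.8 TPM, overlapped at the top, and Odc1 at 230 ± 16.9 TPM lay above Oaz2 at 113 ± 4.26 TPM. Srm, the lowest gene in Control, had 36.5 ± 4.24 TPM in Reloading, which overlapped with Azin1 at 46.3 ± 5.24 TPM and lay above Sat1 at 25.1 ± 2.00 TPM. Amd2 was now the lowest, at 9.32 ± 0.690 TPM. In Unloading, Odc1 at 173 ± 0.137 TPM (SD, n = 2) was already above Oaz2 at 128 ± 9.42 TPM.

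**Figure D1:**
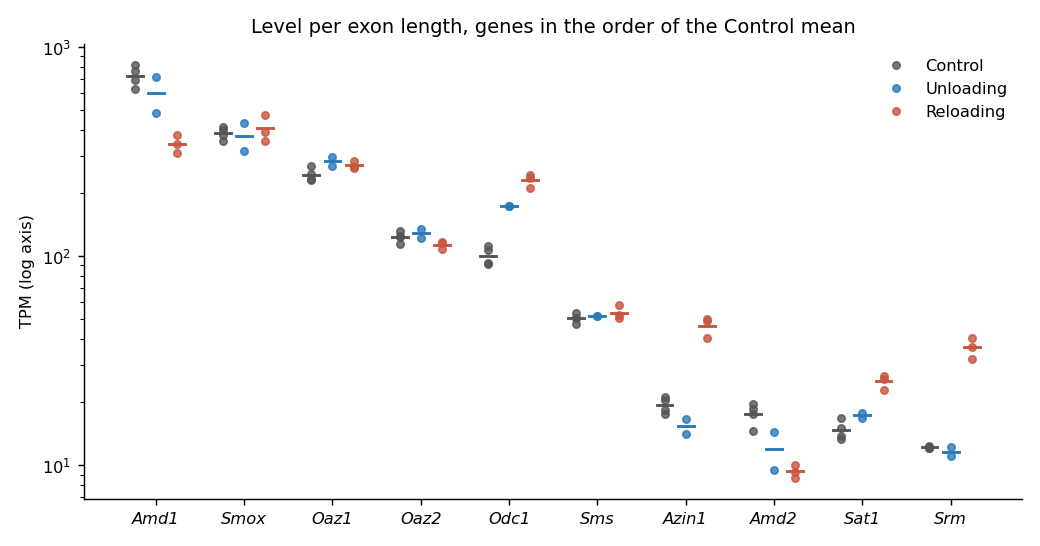
Level of the 10 polyamine genes per exon length (TPM, log axis), with a point for each library and a bar at the mean of Control (n = 4), Unloading (n = 2) and Reloading (n = 3). Genes are in the order of their Control mean, from Amd1 at 727 TPM to Srm at 12.1 TPM, and Odc1 and Srm are placed higher among the genes in Reloading than in Control.

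Between groups, CPM with TMM factors were compared. TPM do not use these factors, and for some genes they went the other way. From Control to Reloading, mean TPM went from 387 to 407 for Smox, from 245 to 271 for Oaz1 and from 50.3 to 53.5 for Sms. These genes were called lower in Reloading by CPM with TMM, and the other genes had the same direction on both scales. When load was removed, Odc1 rose to 1.66 times its Control level, Amd2 fell to 0.665 times and Azin1 fell to 0.763 times. By edgeR's quasi-likelihood test with Benjamini-Hochberg adjustment over all 14851 genes, these were the 3 of 10 genes past an adjusted p of 0.05 on unloading (Unloading against Control), 1 higher and 2 lower. Of all tested genes, 9.9% passed in this comparison, 4.4% higher and 5.5% lower. The median log2 fold change of the 10 genes was -0.05, against -0.0038 for all genes tested. Leaving out Control 3 or Unloading 1 left 1 of the 3 calls, that of Odc1.

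After 1 day of reloading, the 2 genes that supply the aminopropyl donor fell, Srm and Azin1 rose more than 2-fold, and Sms, Oaz1 and Oaz2 fell to between 0.699 and 0.821 times their Unloading level. On reloading (Reloading against Unloading), 7 of the 10 genes passed the threshold: Srm and Azin1 were higher, and Amd1, Amd2, Sms, Oaz1 and Oaz2 were lower. Of all tested genes, 37.5% passed, 18.5% higher and 19% lower. The direction of calls depended on the scaling: with library totals, 5250 genes were higher and 1090 lower, against 2743 and 2819 with TMM. Of the 10 genes, 4 were then higher and 3 lower, with Odc1 and Sat1 gained as higher and Sms and Oaz1 lost. The median log2 fold change of the 10 genes was -0.25, against 0.03 for all genes. With Control 2 and Reloading 1, the libraries with skin transcripts, both left out, 6 of the 10 passed, without Sms. The falls were also smaller without Unloading 2, which leaves 1 Unloading library. The log2 fold changes of the genes called lower then lay between -0.79 (Amd1) and -0.26 (Sms), against -1.14 and -0.28 with both. Those of Srm and Azin1 were 1.42 and 1.17 without Unloading 2.

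Compared with Control, all 10 genes passed the threshold in Reloading, where 43.5% of all tested genes passed, 22.1% higher and 21.3% lower. Odc1, Srm, Sat1 and Azin1 were higher and the other 6 were lower, and the median log2 fold change was -0.27 over the 10 genes and 0.01 over all genes. With library totals, 6028 of all tested genes were higher and 1484 lower, against 3287 and 3169 with TMM. Of the 10 calls, 7 were left under the totals, 4 higher and 3 lower, and 7 when Control 2 and Reloading 1 were both left out. Smox was not called under either, and the other calls lost were those of Sms and Oaz1 under the totals and those of Sat1 and Oaz1 without the pair of libraries.

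Summed markers of macrophages, endothelium and smooth muscle were higher in Reloading than in the other groups, and those of muscle fibres were lower. The remaining cell types were mixed or showed no split. The sums below do not use the TMM factors, whereas the calls do. In CPM of library totals, 9 macrophage markers summed to between 76.6 and 96.2 in Control and Unloading and between 186 and 213 in Reloading, and 8 of the 9 were higher in Reloading than in Unloading by the same test. Endothelial markers summed to between 126 and 152 in Control and Unloading and between 258 and 324 in Reloading, and smooth muscle markers to between 39.3 and 44.6 and between 110 and 124. The 7 fibre markers summed to at least 136135 in Control and Unloading and at most 125682 in Reloading, with 6 of the 7 lower than in Unloading. Fibroblast markers summed to between 300 and 430 CPM in Control and Unloading and between 457 and 581 CPM in Reloading, and satellite cell markers to between 6.42 and 8.66 CPM and between 10.7 and 11.3 CPM. By the test, 1 of the 4 fibroblast markers was higher and 2 were lower on reloading. Of the 3 satellite cell markers, 1 was higher and 0 were lower. In CPM of library totals, only Vcam1 of these 3 was higher in every Reloading library than in all others. Pax7 and Myf5 overlapped between Reloading and the other groups, so the higher satellite cell sum does not stand for all 3 markers. Neutrophil markers stayed at or below 5.51 CPM in each library, with at most 1 count of Ly6g, and erythrocyte markers ranged from 39.9 to 142 CPM with no split by group. On unloading, 2 of the 7 fibre markers and 2 of the 5 endothelial markers were lower, while of the 4 fibroblast markers 2 were higher and 1 was lower. No marker of these lists was at 0 in every library. In whole muscle, a difference in the number of cells of a type and a difference in RNA per cell cannot be told apart. The part of these markers in the changes of Srm, Azin1, Odc1, Amd1, Amd2, Oaz1, Oaz2, Sms and Sat1 was not tested.

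**Figure D2:**
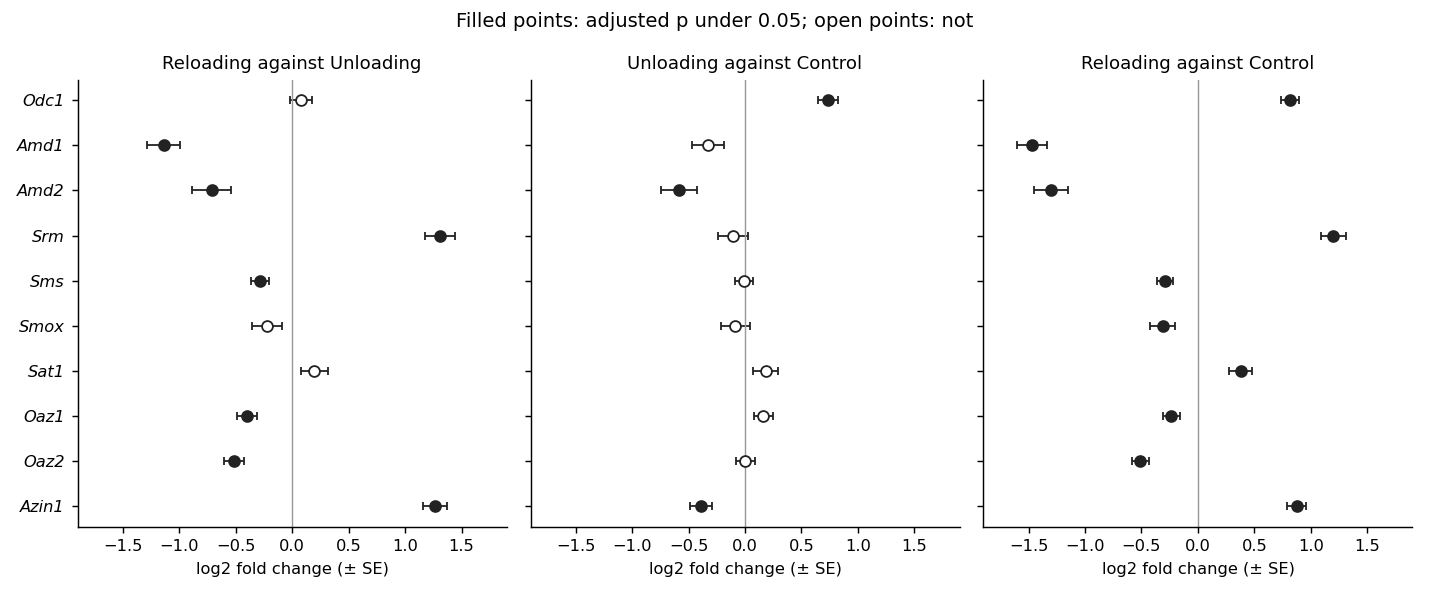
Log2 fold change of each polyamine gene with its standard error in the 3 comparisons, from the edgeR fit over all 9 libraries. Filled points passed an adjusted p of 0.05: 7 of 10 for Reloading against Unloading, 3 of 10 for Unloading against Control and 10 of 10 for Reloading against Control, of which the small differences of Sms, Smox and Oaz1 are lost, and that of Oaz1 changes sign to 0.0031, when libraries are scaled by their totals.

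Odc1 (ENSMUSG00000011179, GRCm38 chromosome 12, 17544794 to 17551505) makes putrescine, the entry step of the pathway. Its level was 124, 129, 151 and 150 CPM in Control 1 to 4, 226 and 236 CPM in Unloading 1 and 2, and 248, 259 and 224 CPM in Reloading 1 to 3. Every Unloading and Reloading library was above every Control library, and Unloading and Reloading overlapped. On unloading it rose by 0.73 ± 0.09 (SE) on the log2 scale (adjusted p = 0.000331), and in Reloading it was higher than in Control by 0.81 ± 0.08 (adjusted p = 1.53e-06). Both calls held under each alternative tried. Counted from the highest of 14851 log2 fold changes on unloading, Odc1 ranked 309.

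On reloading the log2 fold change of Odc1 was 0.08 (95% interval from -0.12 to 0.28, adjusted p = 0.546). This value depended on the scaling: with library totals it was 0.33 with an adjusted p of 0.0120, and with the number in the sample descriptions as a replicate block it was -0.04. The gene Gm22748 overlaps Odc1 on the same strand and had at most 16 counts, compared with 1102 to 4317 for Odc1.

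Amd1 (ENSMUSG00000075232, chromosome 10, 40287458 to 40302188) had 980, 917, 1092 and 1201 CPM in Control 1 to 4, 652 and 1017 CPM in Unloading 1 and 2, and 375, 417 and 345 CPM in Reloading 1 to 3. The 3 Reloading libraries lay below all others, and the 2 Unloading libraries differed widely, with Unloading 2 within the Control range. On reloading Amd1 fell by 1.14 ± 0.15 on the log2 scale (adjusted p = 3.86e-05), and in Reloading it was lower than in Control, at a log2 fold change of -1.47 ± 0.13 (adjusted p = 6.41e-07). The Reloading level was 0.454 times that of Unloading and 0.362 times that of Control, and counted from the lowest of 14851 log2 fold changes against Control, Amd1 ranked 104. On unloading its log2 fold change was -0.33 ± 0.14 (adjusted p = 0.167), and it turned on which Unloading library was used: -0.69 (adjusted p = 0.0104) without Unloading 2 and -0.04 (adjusted p = 0.934) without Unloading 1. With no filter on low counts it was -0.29 (adjusted p = 0.00846).

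Amd2 (ENSMUSG00000063953, chromosome 10, 35708675 to 35711892), the single-exon copy, was measured with 115 to 340 counts per library, compared with 4655 to 18604 for Amd1. It had 22.6, 19.3, 23.9 and 26.1 CPM in Control, 11.7 and 18.6 CPM in Unloading and 9.27, 10.1 and 8.68 CPM in Reloading, and the 3 groups did not overlap. Its log2 fold change was -0.59 ± 0.16 on unloading (adjusted p = 0.0305), -0.71 ± 0.17 on reloading (adjusted p = 0.00495) and -1.30 ± 0.15 between Control and Reloading (adjusted p = 6.85e-06). Both calls that involve Unloading rested on single libraries. On unloading the value was -0.30 without Unloading 1 (adjusted p = 0.411) and -0.98 without Unloading 2 (adjusted p = 0.00547), and the adjusted p was 0.0640 without Control 3 and 0.0633 without Control 4. On reloading the value was -0.33 without Unloading 2 (adjusted p = 0.199). With a replicate block by the description number, the value on unloading was -0.48 (adjusted p = 0.0736).

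As a share of the Amd1 counts, Amd2 made up 2.19% ± 0.0810 in Control (SD, n = 4), 1.81% ± 0.0251 in Unloading (n = 2) and 2.47% ± 0.0528 in Reloading (n = 3), with no overlap between groups. When the counts of the pair were summed, the log2 fold changes were -1.13 on reloading, -0.33 on unloading and -1.46 between Control and Reloading, and no call of Amd1 changed. Whether reads of Amd1 were counted for Amd2 was not tested.

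Srm (ENSMUSG00000006442, chromosome 4, 148591503 to 148594993) and Sms (ENSMUSG00000071708, chromosome X, 157443855 to 157492287) encode the synthases of the consecutive steps to spermidine and to spermine. Srm had 7.78, 7.88, 7.72 and 8.15 CPM in Control 1 to 4, 6.74 and 7.81 CPM in Unloading and 20.1, 18.3 and 16 CPM in Reloading. The Reloading libraries stood clear of the other 6, which lay close together. On reloading Srm rose 2.48-fold, by 1.31 ± 0.13 on the log2 scale (adjusted p = 3.64e-06), to 2.30 times its Control level (1.20 ± 0.11, adjusted p = 6.56e-07). On unloading its log2 fold change was -0.11 (95% interval from -0.39 to 0.17). The counts behind Srm were 69 to 253 per library, and both calls held under each alternative tried.

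Sms had 122, 117, 121 and 132 CPM in Control, 119 and 125 CPM in Unloading and 93.8, 109 and 98.0 CPM in Reloading. The Reloading libraries were below the others, by 17.9% against Unloading in the fit. The log2 fold change was -0.28 ± 0.08 on reloading (adjusted p = 0.0137) and -0.30 ± 0.07 between Control and Reloading (adjusted p = 0.00321). Both differences were close to 0 when libraries were scaled by their totals, at -0.04 and -0.05 with adjusted p of 0.746 and 0.539. The call against Unloading was also lost without Unloading 2 (adjusted p of 0.0963), without Reloading 1 (0.0547) and without both libraries that held skin transcripts (0.0528). The ratio of Srm to Sms within a library, which does not depend on the scaling, was 0.241 ± 0.00921 in Control, 0.224 ± 0.0155 in Unloading and 0.685 ± 0.106 in Reloading.

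**Figure D3:**
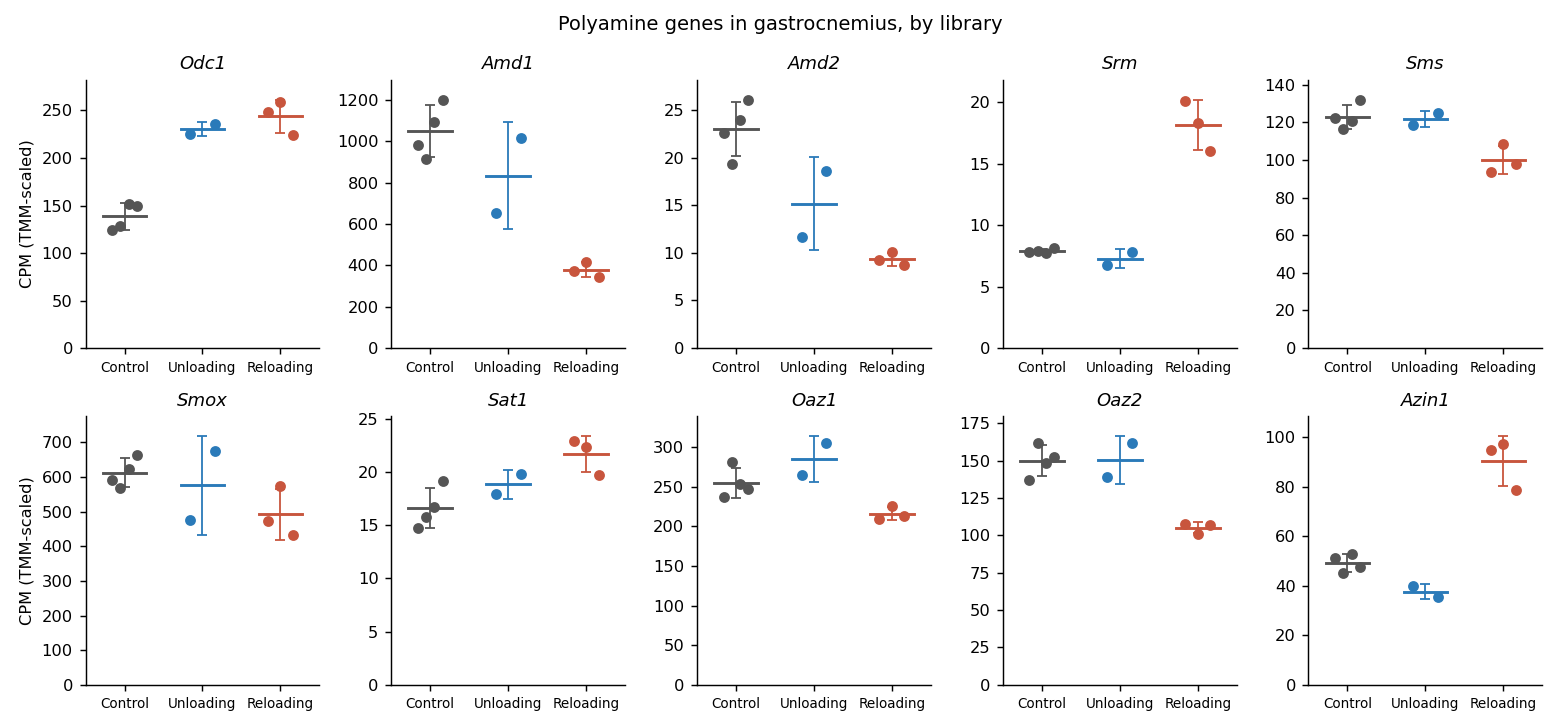
Normalised level (CPM with TMM factors, linear axes from 0) of each polyamine gene in every library, with the mean as a bar and the SD as a whisker for Control (n = 4), Unloading (n = 2) and Reloading (n = 3). Odc1 is higher in Unloading and Reloading than in every Control library, Amd1 is lowest in Reloading at 345 to 417 CPM, Srm and Azin1 are highest in Reloading, and the 2 Unloading libraries stand apart for Amd1, Amd2 and Smox.

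Smox (ENSMUSG00000027333, chromosome 2, 131491496 to 131525922), spermine oxidase, followed Amd1 in level per length in Control. It had 592, 568, 624 and 664 CPM in Control 1 to 4, 475 and 676 CPM in Unloading 1 and 2, and 472, 574 and 432 CPM in Reloading 1 to 3. The groups overlapped in all 3 comparisons, and the Unloading libraries spanned nearly the whole range of values. The log2 fold change was -0.09 on unloading (95% interval from -0.36 to 0.18, adjusted p = 0.716). On reloading it was -0.22 (interval from -0.51 to 0.06, adjusted p = 0.203), but 0.03 under library totals and 0.04 without Unloading 2. It passed the threshold with no filter on low counts (adjusted p of 0.0184), with the block by description number (0.0448) and without Unloading 1 (0.0183).

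Between Control and Reloading the log2 fold change of Smox was -0.31 ± 0.11 (adjusted p = 0.0359). This call was lost under 9 of 18 alternatives, among them library totals, where the value was -0.07. It was also lost without Control 1, 3 or 4 and without Reloading 1 or 3, where the adjusted p lay between 0.0504 and 0.164.

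Sat1 (ENSMUSG00000025283, chromosome X, 155213132 to 155216449), the acetyltransferase that starts polyamine export and back-conversion, had 14.8, 15.8, 16.7 and 19.1 CPM in Control, 17.9 and 19.8 CPM in Unloading and 22.9, 22.3 and 19.7 CPM in Reloading. Reloading lay above Control and overlapped with Unloading, which overlapped with Control. Between Control and Reloading the log2 fold change was 0.38 ± 0.10 (adjusted p = 0.00730), and 0.31 (adjusted p = 0.0657) without both libraries that held skin transcripts. On reloading it was 0.20 (interval from -0.06 to 0.45, adjusted p = 0.209), and 0.45 (adjusted p = 0.00672) with library totals. On unloading it was 0.18 (interval from -0.06 to 0.43).

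Oaz1 (ENSMUSG00000035242, chromosome 10, 80826656 to 80829290) and Oaz2 (ENSMUSG00000040652, chromosome 9, 65668001 to 65690300) are the antizymes whose frameshift site is shown above. Oaz2 had 137, 162, 148 and 153 CPM in Control 1 to 4, 139 and 162 CPM in Unloading and 108, 101 and 107 CPM in Reloading. Control and Unloading overlapped, and Reloading lay below both. Its log2 fold change was -0.52 ± 0.09 on reloading (adjusted p = 0.000330) and -0.51 ± 0.07 between Control and Reloading (adjusted p = 6.18e-05), and both calls held under each alternative tried. On unloading it was 0.0034 (interval from -0.17 to 0.18), with a sign that changed with the scaling.

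Oaz1 had 236, 281, 253 and 247 CPM in Control, 264 and 305 CPM in Unloading and 210, 226 and 212 CPM in Reloading. The Reloading libraries were the lowest 3, and Control and Unloading overlapped. The log2 fold change was -0.40 ± 0.09 on reloading (adjusted p = 0.00234) and -0.24 ± 0.07 between Control and Reloading (adjusted p = 0.0178). With library totals the values were -0.15 (adjusted p = 0.174) and 0.0031 (adjusted p = 0.977), so the direction against Control depended on the scaling. The call against Control was also lost without Reloading 1 (0.0651), without Reloading 3 (0.0560) and without both libraries that held skin transcripts (0.138).

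Azin1 (ENSMUSG00000037458, chromosome 15, 38487427 to 38519266), the inhibitor of the antizymes, rose on reloading while the antizymes fell. It had 51.3, 45.1, 52.7 and 47.5 CPM in Control 1 to 4, 39.7 and 35.4 CPM in Unloading and 94.9, 97.2 and 78.7 CPM in Reloading, and the 3 groups did not overlap. On reloading Azin1 rose 2.40-fold, by 1.27 ± 0.11 on the log2 scale (adjusted p = 6.63e-07), to 1.83 times its Control level (0.88 ± 0.09, adjusted p = 1.37e-06). Both calls held under each alternative tried. On unloading its log2 fold change was -0.39 ± 0.10 (adjusted p = 0.0251), and this call was lost without Control 3 (0.0650), Unloading 1 (0.108) or Unloading 2 (0.163). A gene on the opposite strand, Gm49077, overlaps Azin1 and had at most 5 counts, compared with 455 to 1344 for Azin1, and the counting did not use strand.

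Ratios within a library do not depend on how libraries are scaled to each other. The summed antizyme level (Oaz1 plus Oaz2) was 3.79, 4.35, 3.34 and 3.35 times that of Odc1 in Control 1 to 4, 2.26 and 2.5 times in Unloading and 1.62, 1.6 and 1.8 times in Reloading, in TPM. The 3 groups did not overlap, with means of 3.71 ± 0.474, 2.38 ± 0.169 and 1.68 ± 0.112. Azin1 came to 0.0529 ± 0.00683 of the summed antizymes in Control, 0.0375 ± 0.00689 in Unloading and 0.121 ± 0.0128 in Reloading. Here Unloading 1, at 0.0424, was just below the lowest Control library, at 0.0439, and the Reloading libraries lay from 0.106 to 0.129.

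The levels of the 2 decarboxylases drew together across the groups. Amd1 was 7.58, 6.84, 6.93 and 7.70 times the level of Odc1 in Control 1 to 4, 2.78 and 4.14 times in Unloading and 1.45, 1.55 and 1.48 times in Reloading. The groups did not overlap. On the side of breakdown, Smox was 26.4 ± 1.64 times the level of Sat1 in Control, 21.6 ± 3.83 times in Unloading and 16.2 ± 1.88 times in Reloading. These ratios are descriptions, since groups of 2 to 4 libraries leave an exact permutation test with Unloading unable to pass 0.05, and messenger RNA ratios are not ratios of active protein.

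**Figure D4:**
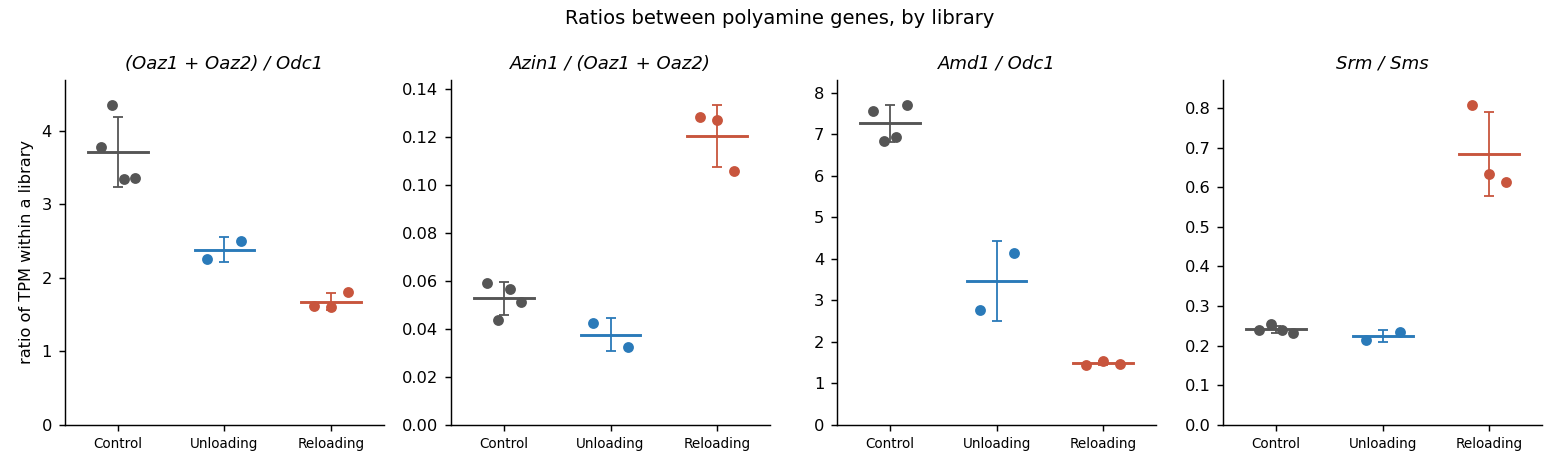
Ratios of TPM between polyamine genes within each library, with the mean as a bar and the SD as a whisker for Control (n = 4), Unloading (n = 2) and Reloading (n = 3), on linear axes from 0. The antizyme to Odc1 ratio falls from a mean of 3.71 in Control to 2.38 in Unloading and 1.68 in Reloading, the Amd1 to Odc1 ratio from 7.26 to 3.46 and 1.49, and the ratios of Azin1 to antizyme and of Srm to Sms are highest in Reloading.

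Of the other genes that feed, use, move or clear polyamines, 38 were listed and 29 had enough counts to be tested. On reloading 13 of these 29 passed the threshold, 4 higher and 9 lower (median log2 fold change -0.17), and 8 passed when Unloading 2 was left out. The lean towards lower rested on the scaling, since with library totals 9 passed, 6 higher and 3 lower. On unloading 1 of the 29 passed (median 0.07), and between Control and Reloading 13 passed, 4 higher and 9 lower (median -0.08), or 10 higher and 3 lower with library totals. Of all tested genes, 37.5%, 9.9% and 43.5% passed in these comparisons.

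Among genes of ornithine metabolism, Oat, ornithine aminotransferase, had between 193 and 229 CPM in Control, 210 and 206 CPM in Unloading and 121, 113 and 137 CPM in Reloading. The Reloading libraries stood apart, and on reloading the log2 fold change was -0.75 ± 0.09 (adjusted p = 2.52e-05). Arg1 and Arg2, the arginases that release ornithine from arginine, had at most 5 and 3 counts in any library and were not tested. Slc7a1, a transporter of arginine, lysine and ornithine, had 9.59, 7.81 and 7.09 CPM in Reloading against 3.52 and 3.99 CPM in Unloading, a log2 fold change of 1.11 ± 0.19 (adjusted p = 0.000308). Its relative Slc7a2 had 74.8, 79.0 and 98.5 CPM in Reloading against 100 and 138 CPM in Unloading, and was lower. Its log2 fold change was -0.51 ± 0.15 (adjusted p = 0.0161), a call lost with library totals and without Unloading 2, Reloading 1 or Reloading 2, and with a robust fit. Slc3a2, the heavy chain shared by several amino acid transporters, was higher by 0.34 ± 0.09 (adjusted p = 0.00648, or 0.0766 without Unloading 1).

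Genes of polyamine oxidation and acetylation other than Smox and Sat1 were present at low levels. Paox, which oxidises acetylated polyamines, had 6.06 and 5.74 CPM in Unloading and 2.98, 2.10 and 3.51 CPM in Reloading, a log2 fold change of -1.03 ± 0.21 (adjusted p = 0.00138). Sat2, a relative of Sat1, had 3.52 and 2.46 CPM in Unloading and 1.69, 1.88 and 1.39 CPM in Reloading, a log2 fold change of -0.84 ± 0.24 (adjusted p = 0.0138). The call of Sat2 was lost with library totals, with DESeq2, with the block by description number and without Unloading 1 or Reloading 3. Aldh9a1, an aldehyde dehydrogenase that acts on aminobutyraldehyde from putrescine, was the gene that passed on unloading, with 6.52 to 8.65 CPM in Control and 9.36 and 14.5 CPM in Unloading. Its log2 fold change was 0.63 ± 0.18 (adjusted p = 0.0400), and 0.26 (adjusted p = 0.473) without Unloading 2. This call was also lost without Control 1, 2 or 4.

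Azin2, a relative of Azin1, had 3.59 and 3.66 CPM in Unloading and 2.01, 2.68 and 2.45 CPM in Reloading, a log2 fold change of -0.60 ± 0.22 (adjusted p = 0.0465), a call lost under 10 of 18 alternatives. Mat2b, the regulatory subunit of methionine adenosyltransferase, and Adi1, of the methionine salvage pathway that recycles the by-product of the synthases, had log2 fold changes of -0.44 ± 0.08 and -0.54 ± 0.10 on reloading (adjusted p = 0.000422 and 0.000660). The call of Mat2b was lost with library totals (0.0510). Eif5a, the translation factor that carries hypusine made from spermidine, and Atp13a2, a polyamine exporter of the lysosome, were the other genes called lower, at -0.25 ± 0.07 (adjusted p = 0.0110) and -0.27 ± 0.09 (adjusted p = 0.0260). Both calls were lost with library totals and without Unloading 2, and that of Atp13a2 also without Unloading 1 or Reloading 1.

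Myc and Mycn, transcription factors known to act on Odc1, were both higher in Reloading. Myc had 3.50, 7.88, 3.50 and 4.98 CPM in Control 1 to 4, 8.61 and 6.50 CPM in Unloading and 17.8, 16.2 and 10.7 CPM in Reloading. Reloading lay above the other groups, and on reloading the log2 fold change was 0.99 ± 0.27 (adjusted p = 0.00950), a call lost without Unloading 2 (0.113) and with a robust fit. On unloading, where Odc1 rose, the value of Myc was 0.58 ± 0.28 (adjusted p = 0.205). Mycn was measured with at most 16 counts in a library and had 0 CPM in Unloading 1, 0.437 CPM in Unloading 2 and 1.29, 0.940 and 0.464 CPM in Reloading. Its adjusted p was 0.0484, and the call was lost under 7 of the 15 alternatives that kept the gene, among them those without Control 1, 3 or 4 and without Unloading 1. Its log2 fold change was 1.79, and 0.99 (adjusted p = 0.281) without Unloading 1. Without Unloading 2 the Unloading library left had 0 counts of Mycn, so no fold is given. The value of Max, the partner of Myc, was 0.01 on reloading (adjusted p = 0.954).

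**Figure D5:**
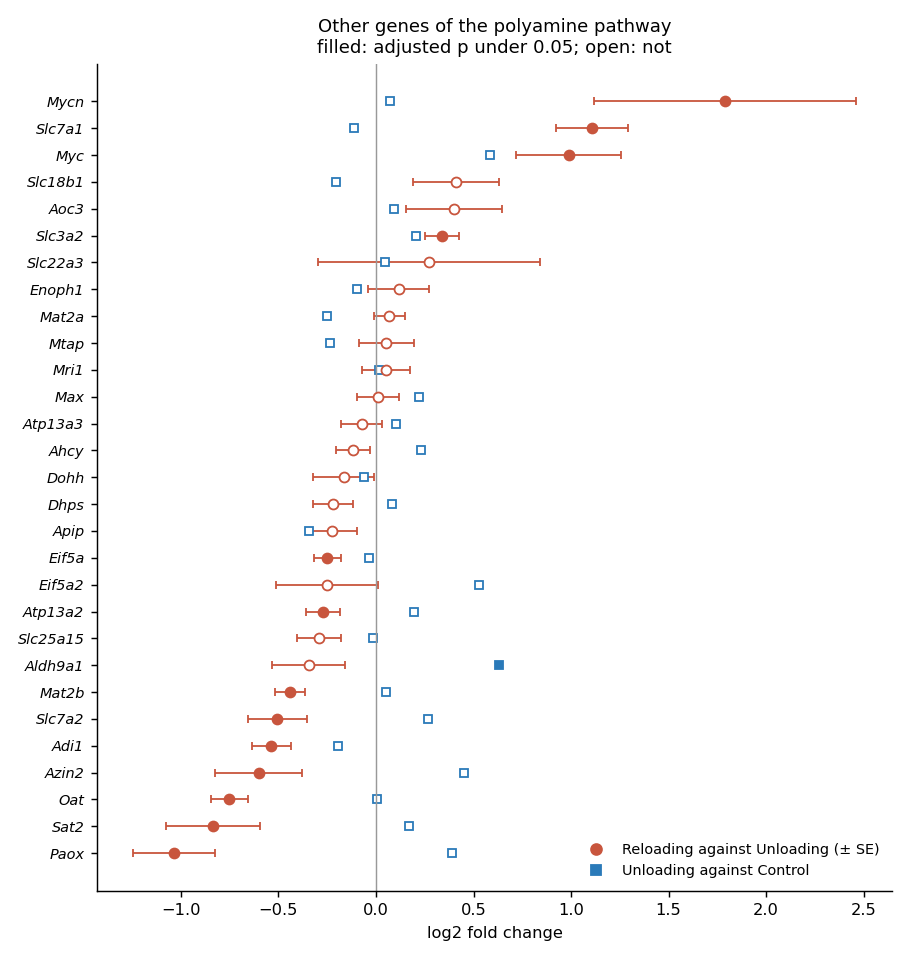
Log2 fold change of the 29 tested genes that feed, use, move or clear polyamines, other than the 10 polyamine genes: circles with standard errors for Reloading against Unloading, squares for Unloading against Control. Filled symbols passed an adjusted p of 0.05, which 13 of 29 genes did for Reloading against Unloading, from Paox at -1.03 to Mycn at 1.79 (0.99 without Unloading 1), and 1 of 29, Aldh9a1 at 0.63, for Unloading against Control.

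Across the 9 libraries, the genes whose log2 CPM followed that of a polyamine gene most closely were looked for among 5832 genes with a mean log2 CPM of at least 4. For Odc1 they were Eda2r (Pearson r = 0.982), Klf6 (0.977) and Smad5 (0.956), whose log2 fold changes on unloading were 0.68, 1.02 and 0.34. For Amd1 they were Chchd2 (0.989), Mgst1 (0.985) and Etfrf1 (0.981), with log2 fold changes of -0.41, -0.72 and -0.64 on reloading. For Smox they were Snf8 (0.921), Mapk14 (0.886) and Epn1 (0.884). The libraries of a group share that group's treatment, so these correlations are given as descriptions of 9 points in 3 groups.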

How the data were processed

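Polyadenylated RNA of 9 gastrocnemius samples was sequenced on an Illumina HiSeq. Per the labels and the submitters' processing notes, the authors aligned reads with STAR 2.7.3a to the mouse build GRCm38.p6 and counted them with featureCounts 2.0.3. The deposited values are raw counts of read pairs per gene, with no filter or normalisation, per the file headers, which name the Ensembl release 102 annotation. The methods describe single reads, whereas the labels and the count table say read pairs. Per the headers the authors counted without strand, and reads that map to several places are left out under the counter's defaults. The authors' tables of fold changes and p-values for the 3 comparisons were used for gene symbols only.

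Genes were kept by filterByExpr (minimum count 10, minimum total 15), scaled by TMM and tested with edgeR 4.0.16 in R 4.3.3, by a two-sided quasi-likelihood F-test with group as the only term over all 9 libraries and Benjamini-Hochberg adjustment over 14851 genes, calling values under 0.05. The fit's common coefficient of biological variation was 0.0927. SE were derived from the F statistic and 95% intervals from the t distribution with the fit's degrees of freedom, log2 CPM had a prior count of 2, and TPM were computed from counts and the exon lengths in the count table. The procedure was tested on simulated counts. Alternatives were other scalings, no filter, DESeq2 1.42.0, a robust fit, the 2 groups compared alone, replicate blocks, leaving out each library and leaving out both libraries with skin transcripts.

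The replicate numbers in titles and in descriptions differ for Reloading. Deviations from group means did not pair by title number (r from -0.20 to 0.08). By description number, r was 0.36, 0.14 and 0.16 for the 3 Control and Reloading pairs. It was 0.05 and 0.08 for Control and Unloading and 0.02 for Unloading and Reloading. The 0.36 was that of Control 2 and Reloading 1, the libraries with skin transcripts. Control and Reloading libraries of unlike description number gave r from -0.22 to 0.12. The labels do not say whether libraries were paired, and the reported fit treats them as unpaired. With the description number as a replicate block, 10 of 10 genes passed for Reloading against Control, as without it.

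The 10 genes, the pathway list, the marker lists and the alternatives were chosen with earlier results of these data known. Genes named besides the 10 were up to 12 pathway genes past the threshold for Reloading against Unloading or Unloading against Control, by size of change (Max, Eif5a, Atp13a2, Arg1 and Arg2 were named after their values were seen), and the 3 genes most like Odc1, Amd1 and Smox. Sequences came from RefSeq promoters and GENCODE transcripts on GRCm38. Protein sequences were not used here.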

Additional observations from a re-analysis of the deposited data

How the results depend on the processing

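Of 543 values of the 10 genes under an alternative, 493 kept their direction and their side of the threshold, 28 lost and 7 gained the call, and 15 changed sign, all 15 of differences that were not called or, for Oaz1, lost with the change. On reloading (Reloading against Unloading) the reversed values were -0.0405 for Odc1 with a replicate block by description number and 0.0268 for Smox with library totals, and leaving out single libraries gave Smox from -0.46 to 0.0443. On unloading (Unloading against Control), Sms (-0.01 as reported) was 0.0261 with no filter, 0.00196 with DESeq2, 0.0201 and 0.0429 with the replicate block by title and by description number, and from -0.0494 to 0.0277 without single libraries. Oaz2 was -0.0052 with library totals and from -0.11 to 0.11 without single libraries, and Smox from -0.37 to 0.15. For Reloading against Control, Oaz1 was 0.0031 with library totals. Leaving out single libraries gave 1 to 3 polyamine genes called for Unloading against Control, and 8 to 14 pathway genes on reloading. On unloading, pathway genes called numbered 1 as reported, 2 with library totals, with DESeq2, with a robust fit, with the block by description number and without both libraries that held skin transcripts, 3 with no filter, 0 with the block by title number, and 0 to 2 without single libraries. The cause of these changes was not tested. Of 249 values of the pathway genes called on reloading or on unloading, 205 kept the call, 44 lost it and none changed sign. Pathway genes called between Control and Reloading are not among these values. The replicate block by description number changed no other call of the 10 genes than those of Smox on reloading and Amd2 on unloading. The 2 Unloading libraries limit every comparison with that group, and where 1 was left out the other was assumed to vary like the remaining groups.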
